A study of Mus musculus with 6 samples.

Results

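The genes described here encode 10 amino acid transporters of the cell surface, measured in cultured heart muscle cells from newborn control mice and from mice labelled as lacking the glucocorticoid receptor in cardiomyocytes. They were Slc7a5, Slc3a2, Slc7a1, Slc7a6, Slc7a11, Slc1a4, Slc1a5, Slc38a1, Slc38a2 and Slc38a4. They were chosen by name, with earlier results of these data known. The Ensembl identifier of each was found in the deposited count tables, so all 10 of 52550 genes in the tables were located. All 10 had enough counts to be tested, among 14386 tested genes.

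Cardiomyocytes were isolated from hearts on postnatal day 1, enriched by magnetic sorting and cultured for 48 h with 5% horse serum and 10% fetal bovine serum. The medium held added L-glutamine and non-essential amino acids, and it was then replaced by medium without serum for 24 h in all groups. The 3 control libraries carried the genotype ctrl, and the 3 GR-cKO libraries came from mice with a cardiomyocyte-specific deletion of the glucocorticoid receptor, the transcription factor encoded by Nr3c1. The labels give the same treatment, ctrl, for all 6 libraries. The sources used here do not give the driver of the deletion, the deleted exon, the alleles that the controls carry or the number of animals per library.

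Cells take up amino acids through families of solute carriers that differ in their substrates and in what drives them. Sodium-coupled carriers such as Slc38a2 and the Slc1a exchangers load small neutral amino acids against a gradient. Exchangers of the Slc7a family, such as Slc7a5 and Slc7a11, trade an amino acid inside the cell for one outside, such as leucine or cystine. Several Slc7a proteins reach the cell surface only when bound to the heavy chain Slc3a2, known as CD98. Many of these genes are known targets of ATF4, the transcription factor of the integrated stress response, and through their substrates they feed protein synthesis, glutathione synthesis and the growth kinase complex mTORC1.

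The libraries held 19371508 to 22583596 gene counts each. Levels are given as CPM, counts relative to the library total scaled by TMM factors. Because each transcript yields a tag at its 3' end, a level was not divided by gene length, although the efficiency of the tag can differ between genes. Nr3c1 fell from 71.5 ± 2.95 to 44.4 ± 1.70 CPM (mean ± SD, n = 3 each; adjusted p = 3.30e-06, edgeR), so its transcript was reduced but present in the libraries labelled GR-cKO, and a tag outside the deleted exon would not report the deletion itself. Of 14386 genes tested, 1097 were higher and 1035 lower (edgeR quasi-likelihood test, adjusted p below 0.05), and scaling by ERCC spike-ins gave 1355 higher and 522 lower. Xist stood at 271 to 293 CPM in the controls and at 0 to 0.0996 CPM in GR-cKO, and the Y-linked Ddx3y at 18.3 to 21.3 and 86.4 to 94.7 CPM, so sex and genotype cannot be told apart in these libraries. Of 15 cardiomyocyte markers 9 were higher and 2 lower, beside 7.63% and 7.19% of all genes tested. The lower ones were the atrial myosin light chain Myl7 and the calcium pump regulator Pln (named after their values were seen). ERCC scaling left 1 lower, and without scaling factors 6 were higher and 3 lower. With 1 library left out 6 to 9 were higher and 2 to 3 lower. The list summed to 39784 to 41582 CPM in the controls, against 48633 to 50707 CPM in GR-cKO, with no marker at 0. The largest gains were 3457 CPM for Actc1 and 3392 CPM for Myl3, also named after their values were seen. Of the 15 markers 4 did not pass.

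Of the 10 transporter genes 5 were higher in GR-cKO and none was lower. Those that rose were Slc7a5, Slc7a11, Slc1a4, Slc38a2 and Slc3a2, by 1.44-fold to 2.70-fold, and Slc7a1, Slc7a6, Slc1a5, Slc38a1 and Slc38a4 did not pass the test. Among all genes tested 7.63% passed as higher and 7.19% as lower. Because the 10 genes were chosen with earlier results known, these shares describe them and are no test of the list. The median log2 fold change was 0.38 over the 10 genes and -0.01 over all genes tested. None of the 10 passed as lower with edgeR at an unadjusted p below 0.05, nor with DESeq2 or limma voom after adjustment. For 8 of the 10 genes every GR-cKO library lay on one side of every control, 7 above and 1 below. Of all tested genes 29.9% were separated in this way, 15.2% above and 14.7% below.

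**Figure D1:**
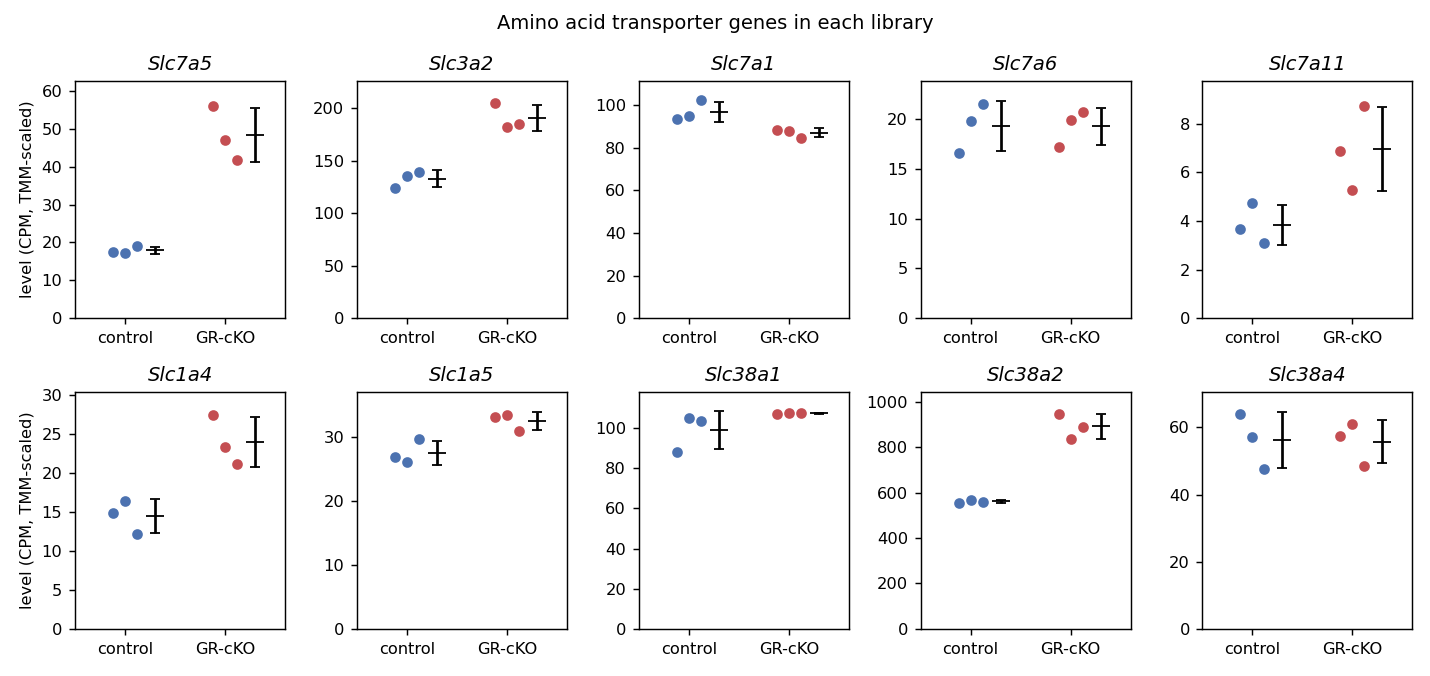
Level of each of the 10 transporter genes in every library, in CPM scaled by TMM factors on axes that start at 0; points are libraries (replicates 1 to 3 from left to right), horizontal marks are means and bars are SD over 3 libraries. The GR-cKO points of Slc7a5, Slc3a2, Slc7a11, Slc1a4 and Slc38a2 all sit above the control points, and those of Slc7a6 and Slc38a4 lie among them.

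Slc7a5, the light chain of the exchanger LAT1 that brings leucine and other large neutral amino acids into the cell, had the largest fold change of the 10 genes (ENSMUSG00000040010, GRCm38 chromosome 8, 121881150 to 121907694, minus strand). It stood at 17.6, 17.1 and 19.0 CPM in the control libraries and at 56.0, 47.1 and 41.9 CPM in GR-cKO. Even the lowest GR-cKO library was far above the highest control, and GR-cKO replicate 1 was the highest. These levels rest on 366 to 384 counts per control library and 813 to 1240 counts per GR-cKO library. The log2 fold change was 1.43 ± 0.12 (± SE; adjusted p = 3.87e-09 by edgeR), with rank 242 from the top among the 14386 genes tested. The annotated gene Gm20388 overlaps Slc7a5 on the opposite strand and had no count in any library.

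Slc3a2 encodes the heavy chain that carries Slc7a5, Slc7a6 and Slc7a11 to the cell surface (ENSMUSG00000010095, chromosome 19, 8706882 to 8723369, minus strand). It was at 124, 136 and 139 CPM in the controls, against 205, 182 and 185 CPM in GR-cKO. All 3 GR-cKO libraries lay above all 3 controls, with a log2 fold change of 0.52 ± 0.07 (adjusted p = 1.70e-05, edgeR). The heavy chain rose 1.44-fold while Slc7a5 rose 2.70-fold. Slc7a5 had 0.142, 0.126 and 0.136 tags per Slc3a2 tag in the control libraries and 0.273, 0.259 and 0.226 in GR-cKO. The groups did not overlap in this ratio, which does not depend on the scaling of the libraries (two-sided exact permutation p = 0.1, which is the lowest value possible with 3 libraries per group).

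Slc7a11 encodes the light chain of the exchanger that imports cystine and exports glutamate, and so supplies the cysteine for glutathione (ENSMUSG00000027737, chromosome 3, 49892526 to 50443614, minus strand). It was the scarcest of the 10 genes, at 3.69, 4.73 and 3.11 CPM in the controls, against 6.87, 5.28 and 8.76 CPM in GR-cKO. The highest control and the lowest GR-cKO library were close together, and the levels rest on 63 to 101 and 106 to 170 counts per library. The log2 fold change of 0.85 ± 0.26 passed the threshold (adjusted p = 0.0246, edgeR). The call ended when any one of control replicate 1 (adjusted p = 0.0655), control replicate 3 (0.09), GR-cKO replicate 1 (0.0626) or GR-cKO replicate 3 (0.138) was left out, with the fold change still positive. Of 5 annotated genes that overlap Slc7a11 only Gm37854 and Gm37498 had any counts, 6 each in 1 library. None of the 5 covers the last exon of the representative transcript, 50364938 to 50372366. The annotated gene runs on to 49892526, and the last exon of its other transcript was not checked.

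Slc7a6 encodes the light chain that exchanges intracellular arginine or lysine for neutral amino acids with sodium (ENSMUSG00000031904, chromosome 8, 106168857 to 106198706, plus strand). Its levels were 16.6, 19.8 and 21.5 CPM in the controls, against 17.2, 19.9 and 20.7 CPM in GR-cKO, so the groups overlapped throughout. Its log2 fold change was -0.0033 ± 0.14 (adjusted p = 0.993, edgeR), and its sign turned with the scaling. In the controls Slc7a5 and Slc7a6 were at nearly the same level, with 1.06, 0.867 and 0.883 Slc7a5 tags per Slc7a6 tag, whereas the GR-cKO libraries had 3.26, 2.37 and 2.02 (two-sided exact permutation p = 0.1).

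The makeup of the light chain transcripts differed between the genotypes. The light chains known to pair with it are Slc7a5, Slc7a6, Slc7a7, Slc7a8, Slc7a10 and Slc7a11, and their summed level was 45.3 to 51.6 CPM in the controls, against 78.1 to 85.5 CPM in GR-cKO. Slc7a5 made up 36.6% ± 2.34 of this sum in control and 59.1% ± 6.04 in GR-cKO (SD, n = 3 each). The share of Slc7a6 was 39.2% ± 2.51 and 23.7% ± 3.28, that of Slc7a7, an exchanger of the same kind, 14.0% ± 0.506 and 7.62% ± 2.32, and that of Slc7a11 7.87% ± 1.72 and 8.58% ± 2.40. Slc3a2 had 2.71 ± 0.0162 tags per light chain tag in control and 2.34 ± 0.0863 in GR-cKO. These sums and shares were chosen after the values were seen and are given without a test.

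**Figure D2:**
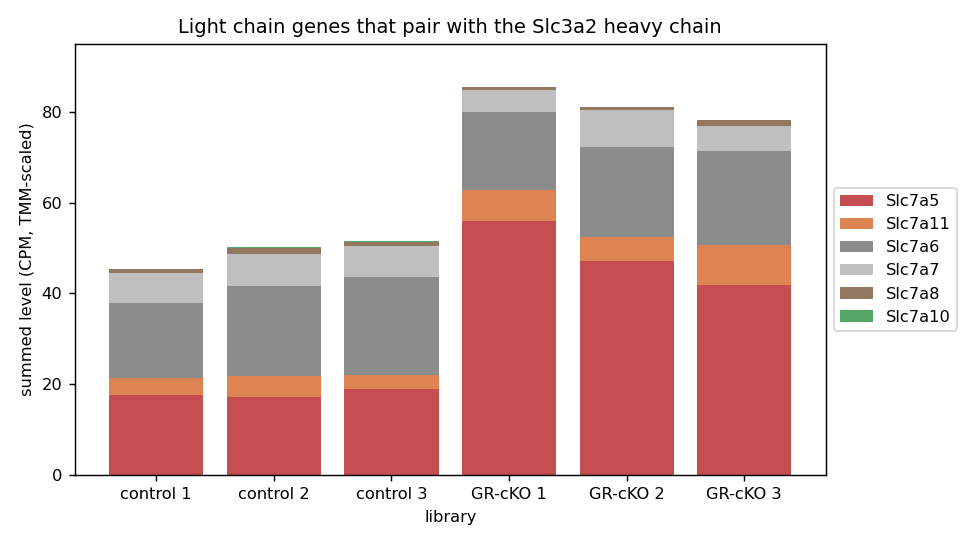
Summed level in CPM scaled by TMM factors of the 6 light chain genes that pair with Slc3a2, stacked for each of the 6 libraries from 0. The Slc7a5 part is 17.1 to 19.0 CPM in the controls and 41.9 to 56.0 CPM in GR-cKO, while the Slc7a6 part is 16.6 to 21.5 and 17.2 to 20.7 CPM.

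Slc7a1 encodes the main carrier of arginine and lysine in most tissues and needs no heavy chain (ENSMUSG00000041313, chromosome 5, 148327410 to 148399904, minus strand). It was the one member whose GR-cKO libraries all lay below the controls, at 93.5, 94.9 and 102 CPM in the controls, against 88.5, 87.7 and 84.6 CPM in GR-cKO. The log2 fold change of -0.16 ± 0.08 did not pass (adjusted p = 0.207, edgeR).

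Slc1a4 and Slc1a5 encode ASCT1 and ASCT2, sodium-dependent exchangers of alanine, serine and cysteine, of which ASCT2 also carries glutamine. Slc1a4 (ENSMUSG00000020142, chromosome 11, 20302180 to 20332713, minus strand) was at 14.9, 16.4 and 12.1 CPM in the controls, against 27.4, 23.4 and 21.1 CPM in GR-cKO. The groups did not overlap, and the log2 fold change was 0.73 ± 0.14 (adjusted p = 0.000767, edgeR). Slc1a5 (ENSMUSG00000001918, chromosome 7, 16781340 to 16798274, plus strand) was at 26.8, 26.1 and 29.6 CPM in the controls, against 33.1, 33.4 and 30.9 CPM in GR-cKO. Its GR-cKO libraries also lay above the controls, but by less, and the log2 fold change of 0.24 ± 0.11 did not pass (adjusted p = 0.155). There were 0.555, 0.629 and 0.409 Slc1a4 tags per Slc1a5 tag in control and 0.828, 0.699 and 0.684 in GR-cKO (two-sided exact permutation p = 0.1).

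Slc38a1, Slc38a2 and Slc38a4 encode sodium-coupled carriers of small neutral amino acids, known as system A. They lie next to each other on chromosome 15 on the minus strand, with 44.5 kb between Slc38a1 and Slc38a2 and 295 kb between Slc38a2 and Slc38a4, and no other protein-coding gene is annotated between them. Slc38a2 (ENSMUSG00000022462, 96687392 to 96699730), known to be induced when amino acids run short, was the most abundant of the 10 genes. It stood at 556, 567 and 560 CPM in the controls, against 947, 837 and 890 CPM in GR-cKO. The controls differed little among themselves, and every GR-cKO library was higher, with a log2 fold change of 0.67 ± 0.06 (adjusted p = 2.97e-08, edgeR). Its rise of 331 CPM was 76.1% of the net difference in the summed level of all 10 genes, which was 1029 ± 21.3 CPM in the controls, against 1463 ± 73.6 CPM in GR-cKO (SD, n = 3 each).

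The neighbours of Slc38a2 did not pass the test. Slc38a1 (ENSMUSG00000023169, 96571418 to 96642913) was at 87.9, 105 and 104 CPM in the controls, against 107, 108 and 107 CPM in GR-cKO, a log2 fold change of 0.12 ± 0.08 (adjusted p = 0.39, edgeR). The 3 GR-cKO libraries were nearly equal, just above the controls, of which replicate 1 was the lowest. Slc38a4 (ENSMUSG00000022464, 96994820 to 97055956), an imprinted gene expressed from the paternal copy, was at 64.0, 57.3 and 47.5 CPM in the controls, against 57.5, 61.1 and 48.6 CPM in GR-cKO, with overlapping groups and a log2 fold change of -0.01 ± 0.11 (adjusted p = 0.962). The number of Slc38a2 tags per Slc38a1 tag was 5.71 ± 0.530 in control and 8.31 ± 0.540 in GR-cKO, and per Slc38a4 tag 10.1 ± 1.57 and 16.2 ± 2.32 (SD, n = 3 each; two-sided exact permutation p = 0.1 for each). The 5 ratios tested here and above were chosen after the values were seen. In each of them the groups did not overlap, and all 5 had an adjusted p of 0.1 over the 5 (Benjamini-Hochberg). With 3 libraries per group no exact permutation p can be below 0.1, so no conclusion is drawn from these tests.

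The order of the levels differed between the genotypes in the places of Slc7a5 and Slc1a4. In control it ran Slc38a2, Slc3a2, Slc38a1, Slc7a1, Slc38a4, Slc1a5, Slc7a6, Slc7a5, Slc1a4 and Slc7a11 from high to low, and the libraries of neighbours overlapped only between Slc38a1 and Slc7a1 and between Slc7a6 and Slc7a5. In GR-cKO Slc7a5 stood in place 6, overlapping Slc38a4 at 48.3 ± 7.15 and 55.8 ± 6.43 CPM, and Slc1a4 had moved above Slc7a6, at 24.0 ± 3.17 and 19.2 ± 1.85 CPM (SD, n = 3 each). GR-cKO replicate 1 was the highest library for Slc7a5, Slc3a2, Slc1a4 and Slc38a2, and GR-cKO replicate 3 for Slc7a11. Without GR-cKO replicate 1 the log2 fold changes of the first 4 were 1.32, 0.47, 0.62 and 0.63, all past the threshold.

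**Figure D3:**
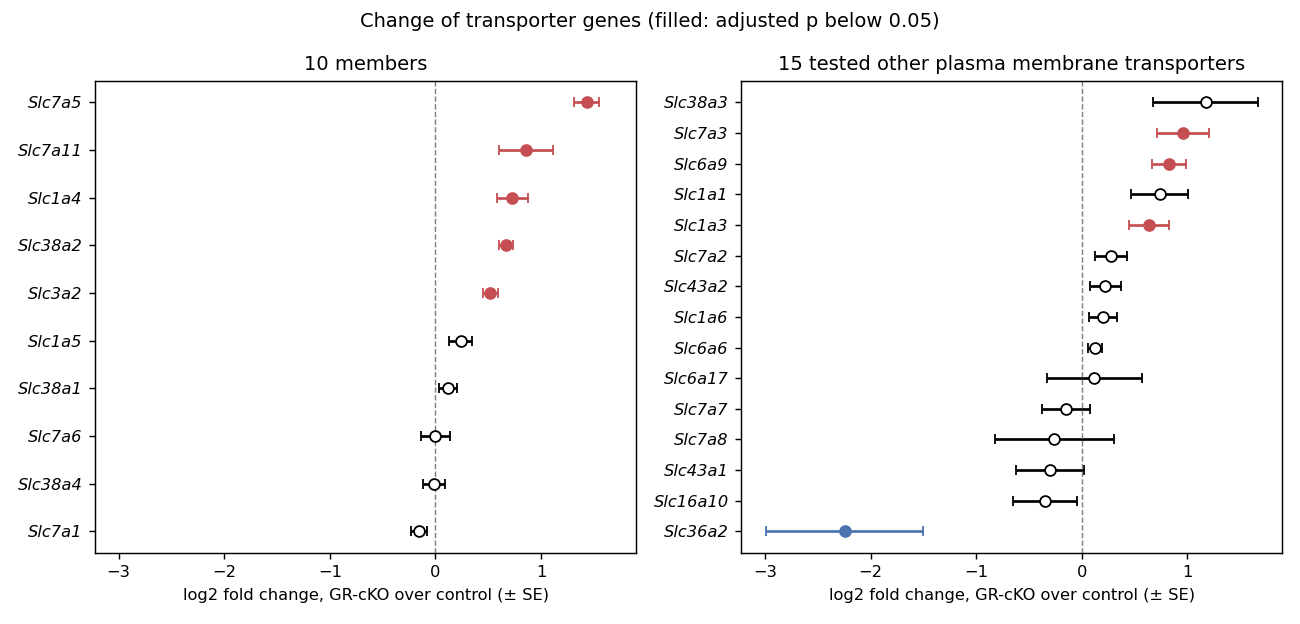
Log2 fold change of GR-cKO over control with its SE (bars) for the 10 transporter genes on the left and for 15 other plasma membrane amino acid transporters on the right; filled points passed the threshold (red higher, blue lower) and open points did not. On the left 5 genes are filled, all to the right of 0, from 0.52 to 1.43.

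Promoter sequences are shown because 5 of the genes rose together. The RefSeq table of promoter windows (GRCm38.p6, 300 bases around each annotated start, of which 50 follow it) held windows for 7 of the 10 genes, and Slc7a5, Slc1a5 and Slc38a1 were not matched. The motif TGATGNAA, the core of the element bound by ATF4 with C/EBP proteins, was searched on both strands. It was found in the windows of Slc7a11 and Slc1a4, which both rose, and in 4.51% of all 27025 genes with a window. Slc7a11 held it 2 times, on opposite strands 66 and 47 bases before the start, as did 23 of all 32851 windows that held it 2 or more times. In Slc1a4 the match spans the start, beginning 4 bases before it. The matching stretches are shown 5′ to 3′ on the gene's strand, with the matches in capitals, at chr3:50443623-50443709 (minus strand) and chr11:20332694-20332747 (minus strand):
Slc7a11: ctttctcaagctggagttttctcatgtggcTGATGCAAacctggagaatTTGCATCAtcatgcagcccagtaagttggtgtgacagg
Slc1a4: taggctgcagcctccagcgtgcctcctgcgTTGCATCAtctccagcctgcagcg
The windows of Slc3a2 and Slc38a2, which also rose, and of Slc7a1, Slc7a6 and Slc38a4 did not hold these letters. The core of the hypoxia response element, ACGTG, which also lies within the E-box CACGTG, was found for Slc3a2 and Slc7a6 and in 21.8% of all genes. The glucocorticoid receptor half-site pair ACANNNTGT was found in none of the 7 genes and in 7.90% of all genes. A match describes the letters of a window and shows no binding. Sequence outside the windows was not searched, so a missing match does not show that a gene lacks the element.

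Of 31 other amino acid transporters of the cell surface 15 had enough counts to be tested, and 5 had no count in any library. Of the 15 tested 3 rose and 1 fell, beside 7.63% and 7.19% of all genes, with a median log2 fold change of 0.20, beside -0.01 over all genes. The glycine transporter Slc6a9 was at 9.07 ± 0.891 CPM in the controls and rose to 16.1 ± 1.88 (log2 fold change 0.83 ± 0.16, adjusted p = 0.000646, edgeR; n = 3 each). Slc7a3, a relative of Slc7a1 that carries arginine and lysine, rose from 3.44 ± 0.624 to 6.69 ± 0.572 CPM (0.96 ± 0.25, adjusted p = 0.00879, edgeR). Without the genes of chromosomes X and Y, Slc7a3 was not among those tested and 2 of these transporters rose. The glutamate and aspartate transporter Slc1a3 was at 7.57 ± 1.48 and 11.8 ± 1.03 CPM (0.64 ± 0.19, adjusted p = 0.0217), and its adjusted p was 0.0614 to 0.0968 without control replicate 1, control replicate 3, GR-cKO replicate 1 or GR-cKO replicate 3. The proton-coupled carrier Slc36a2 was lower, at 0.961 ± 0.0871 and 0.202 ± 0.158 CPM (adjusted p = 0.0441, edgeR). It rests on only 18 to 22 counts per control library and 1 to 7 counts per GR-cKO library. Its adjusted p was between 0.104 and 0.203 when any library but GR-cKO replicate 3 was left out. The taurine transporter Slc6a6, named after its values were seen because it was the most abundant of these genes, was at 477 ± 12.6 and 520 ± 26.0 CPM (0.13 ± 0.06, adjusted p = 0.21).

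Beside 7.63% higher and 7.19% lower among all genes, 1 of 8 tested lysosomal amino acid transporters passed as higher, Slc38a7, which exports glutamine from lysosomes, at 7.75 ± 1.05 CPM in the controls, against 11.3 ± 1.48 CPM in GR-cKO (log2 fold change 0.55 ± 0.18, adjusted p = 0.0471, edgeR; n = 3 each). That call ended without control replicate 2 (adjusted p = 0.158), control replicate 3 (0.115), GR-cKO replicate 1 (0.21) or GR-cKO replicate 2 (0.0899). Of 11 tested mitochondrial amino acid carriers none passed with edgeR, DESeq2 or limma voom, and 2 had an unadjusted p below 0.05 with edgeR. These were the serine carrier homologue Sfxn2, at 11.8 ± 2.05 and 8.40 ± 2.08 CPM, and the mitochondrial glutathione carrier Slc25a39, at 121 ± 7.99 and 136 ± 6.39 CPM.

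Of 19 tested genes of the ATF4 arm of the amino acid response 13 were higher, beside 7.63% of all genes, and none was lower (none lower with DESeq2 or limma voom either, and none at an unadjusted p below 0.05 with edgeR; median log2 fold change 0.52, beside -0.01 over all genes). This list, like the others, was chosen with earlier results of these data known. Trib3, a pseudokinase that restrains ATF4, rose 4.45-fold, the stress-induced factor Atf3 2.89-fold, the chromatin-associated stress protein Nupr1 2.04-fold and the lipoprotein receptor Vldlr 1.74-fold. Atf4 itself, named after its values were seen, was at 231 ± 23.7 and 285 ± 29.1 CPM (log2 fold change 0.30 ± 0.08, adjusted p = 0.0121, edgeR; n = 3 each), and its adjusted p was 0.0554 to 0.103 without control replicate 2, control replicate 3, GR-cKO replicate 1 or GR-cKO replicate 2.

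Of 32 genes listed under amino acid sensing by mTORC1, not all of which are sensors, 3 rose and none fell, a share of 9.38% beside 7.63% of all genes (none fell with DESeq2 or limma voom, and 1 was lower at an unadjusted p below 0.05 with edgeR). Those that rose were the translation inhibitor Eif4ebp1 (1.45-fold), Wdr59 (1.64-fold), a subunit of the GATOR2 complex, and Flcn (1.39-fold), which acts on Rag GTPases. Flcn lost its call without scaling factors (adjusted p = 0.0654, edgeR) and when any library but control replicate 3 was left out, with adjusted p values from 0.0626 to 0.166. Of 26 tested enzymes that use the transported amino acids 4 rose and 1 fell. These are 15.4% and 3.85%, beside 7.63% higher and 7.19% lower among all genes. Shmt2, which makes glycine from serine in mitochondria, rose 1.49-fold, glutamine synthetase Glul 1.26-fold and the arginine-consuming nitric oxide synthase Nos3 1.56-fold, while the ornithine aminotransferase Oat fell from 109 ± 1.07 to 85.1 ± 6.62 CPM (SD, n = 3 each), a call lost with ERCC scaling (adjusted p = 0.0995, edgeR).

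**Figure D4:**
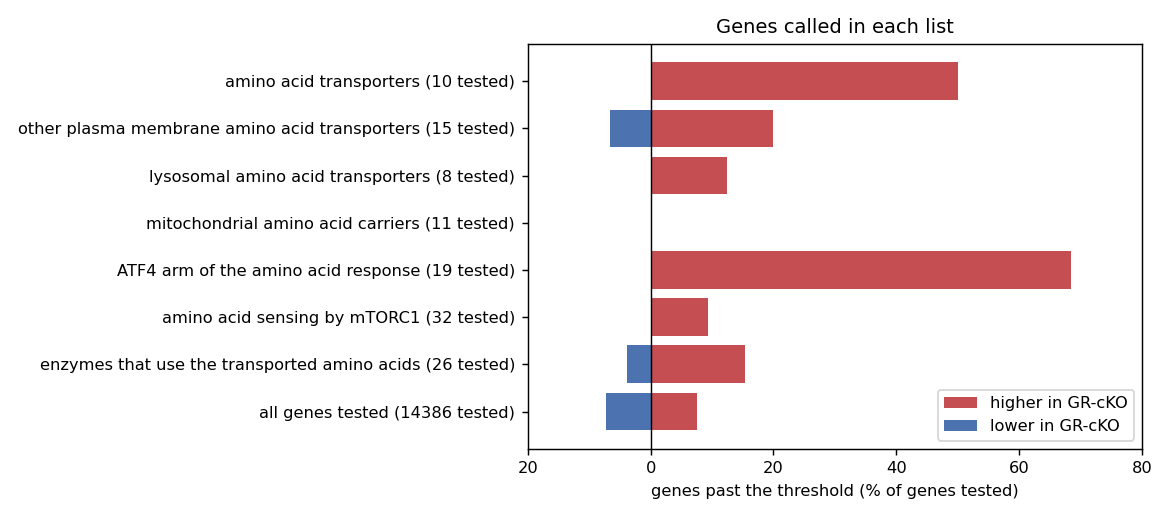
Share of tested genes past the threshold in each list, in percent, higher in GR-cKO to the right of 0 and lower to the left, with the number tested in brackets. The 10 transporter genes (5 higher) and the ATF4 list (13 of 19 higher) stand beside 7.63% higher and 7.19% lower among all genes tested. The lists were chosen with earlier results of these data known.

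Markers of other cell types and states differed between the same groups. The counts below stand beside 7.63% higher and 7.19% lower among all genes tested. Of 10 endothelial markers 8 were higher (5 without scaling factors, or without any one library other than GR-cKO replicate 3) and 1 lower, with summed levels of 1044 to 1087 CPM in the controls, against 1321 to 1412 CPM in GR-cKO. Of 10 fibroblast markers 4 were higher and 1 lower (3660 to 3855 and 4758 to 4882 CPM), and of 9 smooth muscle and pericyte markers 5 were higher and none lower (3748 to 3858 and 4434 to 4657 CPM; 0 lower also with DESeq2, 1 lower with limma voom, and 2 lower at an unadjusted p below 0.05 with edgeR). Of 7 epicardial markers 4 were higher and 2 lower. Among 10 leukocyte markers 6 could be tested, with 2 higher and sums of 14.1 to 18.5 and 35.7 to 56.0 CPM. Lyz2, named after its values were seen, made up most of both sums. It averaged 12.9 CPM among control libraries but 40.6 CPM among GR-cKO libraries. Tyrobp, also called higher, averaged 0.195 and 1.72 CPM. Csf1r, Cd68, Cd14 and Fcer1g did not pass, and their group means were at most 1.68 CPM, so the sums show no general leukocyte rise. Only 2 of 5 erythroid markers could be tested and neither passed with edgeR or DESeq2, while 1 was higher with limma voom and at an unadjusted p below 0.05 with edgeR. No marker of these lists was at 0 in all libraries. Of 14 cell cycle genes 14 were lower, with summed levels of 918 to 953 CPM in the controls, against 469 to 482 CPM in GR-cKO. Of 14 hypoxia-inducible genes 13 were higher, with summed levels of 937 to 970 CPM in the controls, against 2251 to 2375 CPM in GR-cKO. The part of these differences in the transporter levels was not tested, and in such bulk samples a change in the number of cells of a type cannot be told apart from a change of RNA per cell.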

How the data were processed

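The authors deposited raw counts per gene for each of 6 libraries (3 control, 3 GR-cKO), made from 100 ng of total RNA with a QuantSeq 3' forward kit per the labels' protocols. The submitters' processing notes list STAR 2.5.4a, cutadapt 1.16, DESeq2 1.18.1 and featureCounts 1.6.2, and the build GRCm38. The sources used here do not give the strand setting or the treatment of multi-mapping reads. Spike-in rows (92 ERCC, 7 SIRV; 1.98% to 2.36% of counts) stayed out of library sizes and tests. Symbols and coordinates came from GENCODE M21, which matched 52403 of 52550 identifiers. A count of 0 allows up to 0.133 to 0.155 CPM (3 counts, counting error only).

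Genes were tested in edgeR 4.0.16 (R 4.3.3) by its quasi-likelihood method with TMM factors, its default low-count filter and Benjamini-Hochberg adjustment over 14386 genes, threshold 0.05. The steps were also run on counts simulated from the fitted model itself, which does not check how well that model holds for these data. Ratios were compared by exact permutation (scipy 1.17.1). The labels call the libraries biological replicates without naming animals or cultures, so p-values measure the spread between these libraries. Pairs within a group differed beyond sampling noise (median chi-square 2.47 to 3.71 per gene).

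The members and gene lists were chosen with earlier results of these data known. Named genes were all members, up to 8 called genes of each other transporter list and up to 4 of each remaining list by smallest p, or the 2 with the smallest p as values where none passed, and only part of those from marker lists is printed. Protein sequences were not used here. Alternatives were other scalings (DESeq2's size factor method, none, ERCC), other filters (none, 5 CPM in 3 libraries), DESeq2 1.42.0, limma 3.58.1 voom, a replicate block, no X or Y genes, and each library left out.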

Additional observations from a re-analysis of the deposited data

How the results depend on the processing

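Slc7a5, Slc38a2, Slc3a2 and Slc1a4 kept their direction and their call under all 15 alternatives, and Slc7a11 under all but the 4 omissions of a library given with its values. With 1 library left out, log2 fold changes spanned 1.32 to 1.53 (Slc7a5), 0.63 to 0.71 (Slc38a2), 0.47 to 0.56 (Slc3a2), 0.62 to 0.83 (Slc1a4) and 0.67 to 1.03 (Slc7a11), and 4 to 5 transporter genes passed. Slc7a6 lay near 0 and turned positive with RLE factors (0.000275), ERCC scaling (0.0819), the 5 CPM filter (0.0038), DESeq2 (0.000317) and the replicate block (0.000755), and ranged from -0.10 to 0.0806 with a library left out. Slc38a4 was 0.0864 with ERCC scaling and -0.12 to 0.0891 with a library left out. ERCC scaling moved all genes up by a median of 0.09 and left 522 genes lower. Leaving out a library gave 842 to 993 genes higher and 726 to 889 lower. The lower call among other surface transporters, Slc36a2, fell to 0 with ERCC scaling, no filter or the 5 CPM filter, where it was not tested in the last case, and to 0 to 1 with a library left out. The lysosomal call, Slc38a7, fell to 0 without scaling factors, without a filter and with limma voom, and to 0 to 1 with a library left out. With a library left out 0 to 1 mTORC1 genes were lower. ERCC scaling left 0 enzymes lower. The causes were not tested. The same replicate number did not pair libraries (correlations of deviations -0.0001, 0.0366 and 0.0195, and not every library correlated best with its own number), and the replicate block gave 1201 genes higher and 1152 lower with 5 transporter genes higher. Slc7a11 rests on 63 to 170 counts per library, and the part of depth in its lost calls was not tested.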
